A study of Mus musculus with 8 samples.

Results

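Deubiquitinating enzymes, the proteases that take ubiquitin off other proteins, were followed at the mRNA level in livers with and without hepatic Brap. The members were the protein-coding genes of the deposited table whose symbols begin with Usp, Otud, Otub or Uchl and continue with a number (with 1 further letter allowed for Otud), together with Bap1 and Cyld. Usp18 was left out, so 56 of the 24451 genes were members. Of these, 43 belong to the ubiquitin-specific protease (USP) family, counting Cyld, 8 to the ovarian tumor (OTU) family and 5 to the ubiquitin C-terminal hydrolase (UCH) family, counting Bap1. RNA came from the left liver lobe of 8 C57BL/6 mice (on a C57BL/6J background in the study's methods), at an age of 18 wk and after a fast of 6 h, and single-end reads 50 bases long were obtained. The 4 Brap LKO mice carried Brap fl/fl alleles and Cre under the Albumin promoter, which is active in hepatocytes. The 4 Brap F/F controls, called wild type in the deposited labels, carried the same Brap fl/fl alleles without Cre. Both groups therefore shared the floxed alleles, and the loss of Brap and the presence of Cre cannot be told apart. The study used male mice.

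Ubiquitin is joined to substrates by a chain of activating, conjugating and ligating enzymes, of which BRAP is a ligase, and deubiquitinating enzymes reverse that step. They edit or remove ubiquitin chains, which can spare a protein from the proteasome or end a signal, and they recycle ubiquitin itself. USP15 is known to remove ubiquitin from BRAP. BAP1, BRCA1-associated protein 1, shares the origin of its name with BRAP but is a nuclear deubiquitinase and another protein. USP47, USP10 and OTUB2 have been reported to remove ubiquitin from YAP, the transcriptional effector of the Hippo pathway.

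The recovered reads numbered between 26280884 and 33313914 per liver. Brap itself, counted over the whole gene, ranged from 3641 to 4203 normalized counts in Brap LKO and from 3994 to 4410 in Brap F/F (log2 fold change, or log2 FC, of -0.07, limma adjusted p = 0.631). Cre removes only exons 2 and 3, and counts over the whole gene therefore did not check the labels. All 10 hepatocyte markers examined were present, and of these 0 passed the adjusted threshold and 1 was lower at an unadjusted p-value under 0.05 (median log2 FC -0.33). The fitted value was below 0 for 8 of these markers (against 52.0% of all tested genes) and above 0 for 2. Their summed normalized count was 2250597 to 3137491 in the Brap LKO livers and 2852579 to 4349062 in the Brap F/F livers, with overlap. Only 5 red cell, 2 nerve and 1 skeletal muscle markers were tested, and 0 of them had an unadjusted p-value under 0.05. At that level, 9.23% of all tested genes were higher and 6.59% lower, so the 0 says little for so few markers. Markers of cholangiocytes, macrophages, stellate cells and lymphocytes were more often higher in the Brap LKO livers, and their values are given below, after those of Usp43.

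Nearly all deubiquitinating enzyme mRNAs differed little between Brap LKO and Brap F/F livers. The exception by size was Usp43, which had about 19 normalized counts in Brap LKO livers and about 3 in Brap F/F livers. A normalized count is the number of reads on a gene divided by a scaling factor for its liver. Of the 56 members, 53 passed the filter (a mean of 5 or more normalized counts in the 8 livers) and were tested with limma on log2(normalized count + 1), with Benjamini-Hochberg adjustment over all 15352 genes tested. At an adjusted p-value under 0.05, 0 members were higher and 0 were lower in Brap LKO livers, where 0.664% of all tested genes were higher and 0.104% lower. At an unadjusted p-value under 0.05, 1 member was higher (Usp43) and 2 were lower (Uchl5 and Usp53), against 9.23% of all tested genes higher and 6.59% lower. With every liver scaled to the same total of reads instead, 17 members were higher and 0 lower at that level. Under that scaling, 22.0% of all tested genes were higher and 1.32% lower, and their median log2 FC moved to 0.15. On the recovered reads, edgeR's quasi-likelihood test and DESeq2 each called 1 member higher at an adjusted p-value under 0.05, Usp43, and 0 lower. Of all tested genes, edgeR called 0.703% higher and 0.0912% lower, and DESeq2 2.96% higher and 1.11% lower.

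The intervals were narrow for most members. The 95% confidence interval (CI) of the log2 FC lay within 0.5 of 0 for 47 of the 53 tested members, as for 49.9% of all tested genes, and within 1 of 0 for 50, as for 76.9% of all tested genes. The 3 members whose intervals reached beyond 1 were Usp43, Usp2 and Uchl4. The fitted log2 FC was under 0.25 in size for 48 members and under 0.1 for 32 (shares of all tested genes within these bounds were not computed). It lay above 0 for 22 members and below 0 for 31 (of all tested genes, 52.0% lay below 0), with a median of -0.03 beside -0.01 over all tested genes. Members had more reads than the typical gene, with a median of the mean normalized counts of 941 against 306 for all tested genes. The median spread between livers of one group (pooled SD on the log2 scale) was 0.113 for members and 0.214 for all tested genes. By family, the median log2 FC was -0.03 for the 41 tested USP members, -0.09 for the 8 OTU members and -0.12 for the 4 UCH members.

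**Figure D1:**
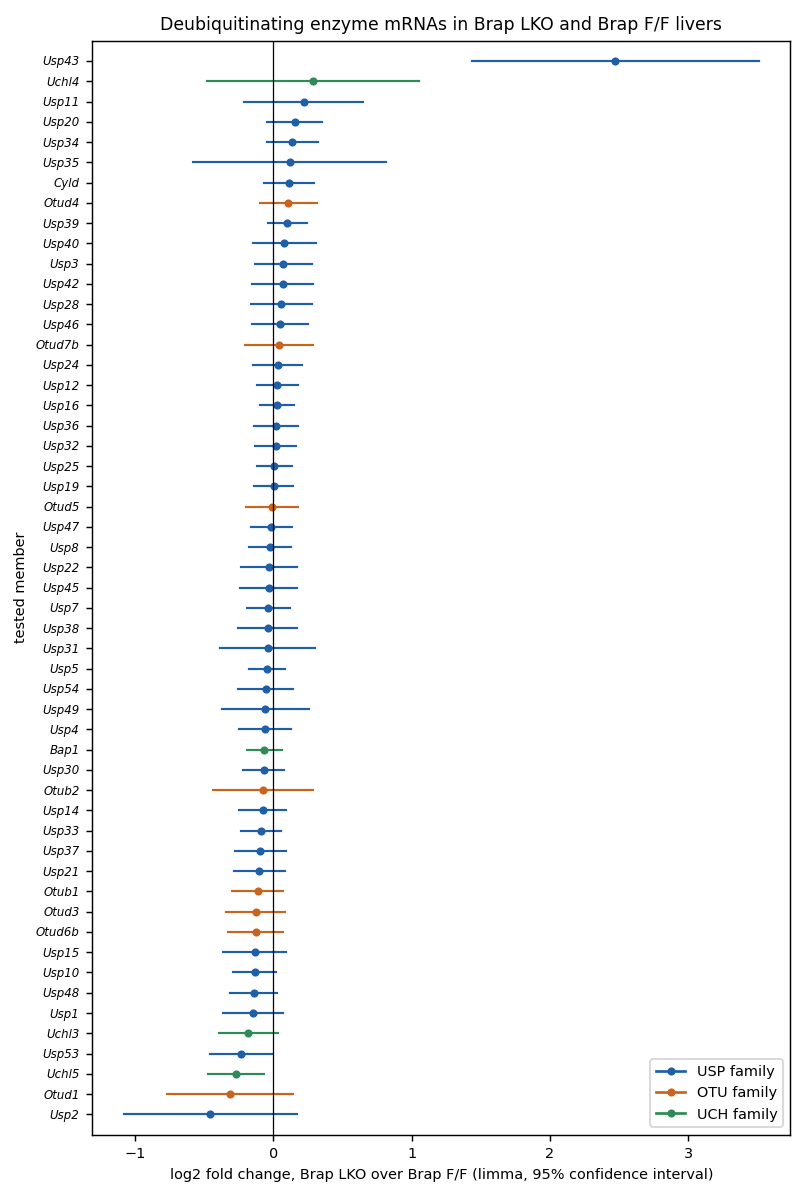
Log2 FC of each of the 53 tested deubiquitinating enzyme mRNAs, Brap LKO over Brap F/F (horizontal axis), with the limma 95% CI as a line and the family as color. Usp43 stands alone at 2.47, and the intervals of 50 members lie within 1 of 0.

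Usp43, a ubiquitin-specific protease whose substrates are less well described than those of its relatives, is encoded on the reverse strand at chr11:67854523-67922153 (mm10). Its normalized counts were 15.5, 17.8, 19.2 and 23.9 in Brap LKO replicates 1 to 4 and 5.70, 5.09, 1.05 and 0.981 in Brap F/F replicates 1 to 4. Every Brap LKO liver lay above every Brap F/F liver. This separation in the same direction was seen in 2 members and in 5.48% of all tested genes. The log2 FC of Usp43 was 2.47 (standard error 0.462, 95% CI 1.43 to 3.51), and its adjusted p of 0.0514 from limma stood just outside the threshold. The two-sided exact permutation test over the 70 arrangements of 4 livers against 4 gave p = 0.0286, the smallest p that this design allows. On the recovered reads, the adjusted p was 0.0456 with edgeR (log2 FC 2.56) and 5.52e-04 with DESeq2 (2.6). Without 1 liver in turn, the adjusted p from limma ranged from 0.0546 to 0.150 and stayed outside the threshold, while the log2 FC ranged from 2.19 to 2.77.

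Few reads lay behind the Usp43 values. The Brap LKO livers held 17, 21, 19 and 23 reads and the Brap F/F livers 5, 5, 1 and 1, in the order of the replicates. The ratio of the summed levels was 6.04, with an exact Clopper-Pearson 95% CI for counting error alone of 3.28 to 12.2. Usp43 passed the filter on low values only through its level in the Brap LKO livers. Of its exon bases, 609 (12.8%) are shared with the noncoding gene 9130017K11Rik on the opposite strand. That gene had 9, 7, 3 and 3 reads in the Brap LKO livers and 1, 0, 1 and 1 in the Brap F/F livers, and it was below the filter. The use of strand in counting is not given in the sources used here, so reads of this pair cannot be told apart. The next gene of the table, Stx8, is 44040 bases away and differed little (log2 FC 0.02, limma adjusted p = 0.908).

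Some markers of several liver cell types other than hepatocytes were, like Usp43, higher in Brap LKO livers. Their relation to Usp43 from liver to liver was not tested. In bulk RNA, more cells of a type and more RNA per cell cannot be told apart. Of 8 tested cholangiocyte markers, 6 had an unadjusted p-value under 0.05, all higher in Brap LKO livers, and 2 passed the adjusted threshold in limma, Cldn4 and Cftr (adjusted p = 0.0494 and 0.0331). The summed normalized count of the 9 cholangiocyte markers was 1919 to 3778 in the Brap LKO livers and 1131 to 2128 in the Brap F/F livers, and 0 of the 9 were at 0 in every Brap F/F liver. Cldn4 and Cftr each had at most 2 reads in any Brap F/F liver, so they passed the filter only through their level in the Brap LKO livers. The number with an unadjusted p-value under 0.05, all higher in Brap LKO livers, was 6 of 10 for stellate cells and fibroblasts, 4 of 9 for macrophages and 3 of 9 for lymphocytes. Of these, 1, the stellate marker Pdgfrb, passed the adjusted threshold in limma. Of all tested genes, 9.23% were higher at an unadjusted p-value under 0.05 and 0.664% were higher at the adjusted threshold. Sums ran from 7734 to 12223 against 5091 to 8798 for stellate cells and fibroblasts, from 6170 to 11134 against 6266 to 8681 for macrophages, and from 172 to 251 against 103 to 179 for lymphocytes. None of the sinusoidal endothelial (0 of 8) and proliferation markers (0 of 8 tested) had an unadjusted p-value under 0.05. The part of these cells in the Usp43 value was not tested.

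**Figure D2:**
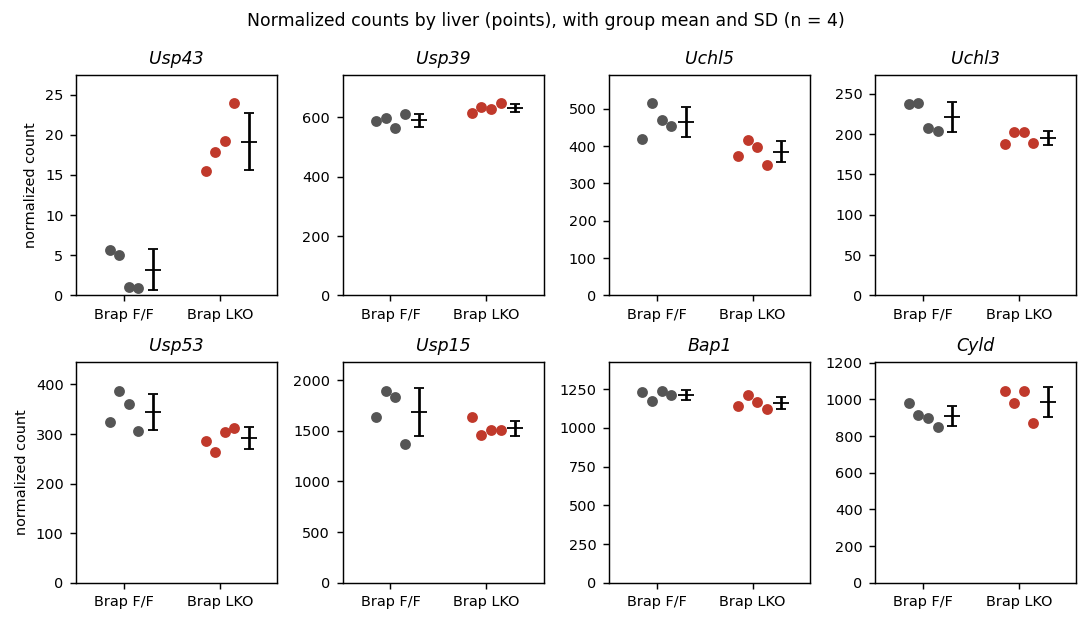
Normalized counts of 8 members in each liver (points, vertical axis from 0), for Brap F/F (gray) and Brap LKO (red), with the group mean and SD (n = 4) beside them. The groups are apart for Usp43, Usp39, Uchl5 and Uchl3 and overlap for Usp53, Usp15, Bap1 and Cyld.

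Among the enzymes that sit on the proteasome, Uchl5 had the smallest p-value of the members with a negative log2 FC. UCHL5 trims ubiquitin chains on substrates docked at the regulatory particle and also belongs to the INO80 chromatin remodeler. Its normalized counts were 374, 417, 399 and 351 in the Brap LKO livers and 420, 515, 470 and 454 in the Brap F/F livers. All Brap LKO livers were below all Brap F/F livers, but the highest of the former and the lowest of the latter lay close together. The log2 FC was -0.27 (95% CI -0.47 to -0.07, limma adjusted p = 0.208; exact permutation p = 0.0286, two-sided). Separation of the groups with Brap LKO lower was seen in 2 members, Uchl5 and Uchl3, and in 4.39% of all tested genes. This separation is of counts scaled with the authors' size factors and was not examined at equal totals of reads. With every liver scaled to the same total, the log2 FC was -0.11 for Uchl5 and -0.02 for Uchl3 (limma adjusted p = 0.427 and 0.906). Usp14, the other proteasome-bound member, averaged 1235 ± 76.5 normalized counts in Brap LKO and 1304 ± 92.9 in Brap F/F (SD, n = 4, log2 FC -0.08, limma adjusted p = 0.637). Of its exon bases, 26.0% are shared with Thoc1 on the opposite strand.

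The cytosolic UCH enzymes process small ubiquitin adducts. Uchl3 had normalized counts of 188, 202, 202 and 188 in the Brap LKO livers and 237, 238, 207 and 204 in Brap F/F. The groups were apart by less than the range within either, and the log2 FC of -0.18 had a 95% CI from -0.39 to 0.03 (limma adjusted p = 0.386). Uchl4, a close relative of Uchl3, averaged 14.3 ± 2.82 in Brap LKO and 12.3 ± 5.52 in Brap F/F (SD, n = 4, log2 FC 0.29, limma adjusted p = 0.699), and reads of such near copies are uncertain. Uchl1, an abundant enzyme of neurons, was 1 of 3 members below the filter, with at most 5 reads in the Brap LKO livers and at most 3 in the Brap F/F livers. Of the other untested members, Usp13 had at most 5 and 2 reads and Usp50 at most 2 and 4 in the respective groups. Fitted without the filter, Usp13, which removes ubiquitin in mitophagy and protein quality control, had a log2 FC of 1.17 (95% CI 0.20 to 2.14, unadjusted p = 0.0225, limma adjusted p = 0.320), on 14 reads in Brap LKO against 4 in Brap F/F. The CIs of Uchl1 (-0.89 to 1.97) and Usp50 (-1.16 to 1.47) were wide and included 0.

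The nuclear UCH member Bap1, which takes ubiquitin off histones and is a tumor suppressor, was among the steadiest genes. Its normalized counts were 1142, 1210, 1169 and 1123 in the Brap LKO livers and 1235, 1171, 1240 and 1212 in Brap F/F. The groups overlapped, and the log2 FC was -0.07 (95% CI -0.19 to 0.06, limma adjusted p = 0.603). Usp22, the deubiquitinase of the SAGA coactivator, had a log2 FC of -0.03 (95% CI -0.23 to 0.17, limma adjusted p = 0.886). In all, 6 histone deubiquitinases were tested (with Usp3, Usp16, Usp21 and Usp49), and 0 had an unadjusted p-value under 0.05. At that level, 9.23% of all tested genes were higher and 6.59% lower. Usp16 had the smallest spread of the members, with a pooled SD of 0.0321 on the log2 scale. Of the exon bases of Usp49, 51.2% are shared with Gm20517 on the same strand, so its level is uncertain.

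Usp15, the deubiquitinase that acts on BRAP and on TGF-β receptor signaling, had normalized counts of 1633, 1456, 1507 and 1504 in the Brap LKO livers and 1641, 1897, 1832 and 1375 in Brap F/F. The Brap LKO values fell inside the range of the Brap F/F livers. Its log2 FC was -0.13 (95% CI -0.36 to 0.09, limma adjusted p = 0.540). Its relatives Usp4 and Usp11 had log2 FCs of -0.06 and 0.22, with adjusted p-values of 0.741 and 0.601 from limma. The members reported to act on YAP were likewise not past the threshold. Usp47 averaged 3526 ± 149 normalized counts in Brap LKO and 3560 ± 185 in Brap F/F (SD, n = 4), and its log2 FC of -0.01 had a 95% CI from -0.16 to 0.13 (limma adjusted p = 0.935). Usp10, which also stabilizes p53, averaged 3064 ± 160 and 3368 ± 214 (SD, n = 4), and its log2 FC was -0.14 (95% CI -0.29 to 0.02, limma adjusted p = 0.376). Otub2 had few reads and a wider interval, from -0.44 to 0.29 around -0.07.

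Usp7 stabilizes MDM2 and p53. It averaged 2503 ± 86.0 normalized counts in Brap LKO and 2570 ± 189 in Brap F/F (SD, n = 4, log2 FC -0.04, 95% CI -0.19 to 0.12, limma adjusted p = 0.827). Cyld removes chains that carry signals rather than mark proteins for decay, and it restrains NF-κB signaling. Its normalized counts were 1048, 978, 1047 and 874 in the Brap LKO livers and 978, 913, 901 and 847 in the Brap F/F livers, with overlap between the groups. The log2 FC was 0.11 (95% CI -0.07 to 0.30, limma adjusted p = 0.511). Otub1, an inhibitor of ubiquitin conjugation as well as a protease, had a log2 FC of -0.11 (95% CI -0.30 to 0.07, limma adjusted p = 0.513). Of 10 tested members with roles in inflammatory and interferon signaling, 0 had an unadjusted p-value under 0.05, and 4 lay above 0 and 6 below. At that level, 9.23% of all tested genes were higher and 6.59% lower, and 52.0% lay below 0 at any p-value.

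Usp39 was the remaining separated member, and Usp53 the remaining member with an unadjusted p-value under 0.05. Usp39, a component of the splicing machinery, had normalized counts of 613, 635, 629 and 647 in the Brap LKO livers and 586, 597, 562 and 612 in Brap F/F. The groups were apart by less than 1 normalized count, and the log2 FC was 0.10 (95% CI -0.04 to 0.24, limma adjusted p = 0.465). Usp53, a protein of tight junctions whose loss causes cholestasis, had 287, 264, 305 and 313 normalized counts in Brap LKO and 325, 388, 361 and 305 in Brap F/F. The groups overlapped at 1 Brap F/F liver (log2 FC -0.23, unadjusted p = 0.0448, limma adjusted p = 0.305; exact permutation p = 0.0571, two-sided). Usp54 had a log2 FC of -0.05 (limma adjusted p = 0.792).

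Usp2 was the member with the lowest fitted value and a wide spread, exceeded only by Usp43, Usp35 and Uchl4, which had far fewer reads. USP2 acts on MDM2 and cyclin D1, and its mRNA is known to follow the circadian clock in the liver. It had normalized counts of 2994, 2635, 3304 and 1620 in the Brap LKO livers and 2719, 4902, 4576 and 2444 in Brap F/F. The groups overlapped over most of their range, and the log2 FC was -0.45 (95% CI -1.08 to 0.17, limma adjusted p = 0.452). The pooled SD within groups was 0.485 on the log2 scale, where counting error alone would give 0.0257. Otud1, which acts in antiviral signaling, followed with a pooled SD of 0.334, against 0.0926 for counting error. Its normalized counts were 233, 190, 253 and 178 in the Brap LKO livers and 202, 363, 305 and 213 in the Brap F/F livers, so that Brap LKO replicate 4 was lowest and Brap F/F replicates 2 and 3 were highest, as for Usp2. Its log2 FC was -0.31 (limma adjusted p = 0.478).

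The spread of Usp2 over the 8 livers went with that of some clock genes. The relation was examined for 14 clock genes on the log2 scale, with two-sided exact permutation tests and adjustment over the 14. Cry1, a repressor of the clock, had Pearson's r = 0.96 (exact permutation, adjusted p = 0.00139) and Spearman's rho = 0.98 (adjusted p = 0.00278). Per2 had r = 0.93 (exact permutation, adjusted p = 6.94e-04) and rho = 0.98 (adjusted p = 0.00278), and Per1 had r = 0.91 (exact permutation, adjusted p = 0.0079) and rho = 0.95 (adjusted p = 0.00532). Nr1d1, the REV-ERBα repressor, ran the other way, with r = -0.91 (exact permutation, adjusted p = 0.00451) and rho = -0.93 (adjusted p = 0.00781). Npas2, Hlf and Ciart passed for r (exact permutation, adjusted p = 0.0409 for each) but not for rho, and the other 7 genes passed for neither. Without the 2 livers farthest from the median of Usp2, Brap LKO replicate 4 and Brap F/F replicate 2, r was 0.87 for Cry1, 0.84 for Per2, 0.72 for Per1 and -0.81 for Nr1d1. The numbers in the labels form a lower and a higher series of 4 livers each, of which 3 Brap LKO livers are in the lower and 3 Brap F/F livers in the higher. With values centered and permuted within genotype (576 arrangements, adjusted over the 14), r was 0.98 for Cry1, 0.92 for Per2 and 0.97 for Per1 (exact permutation, adjusted p = 0.0122, 0.0162 and 0.0122), and -0.88 for Nr1d1 (adjusted p = 0.0535). Within the series of label numbers, r was 0.98, 0.99 and 0.95 for the same 3 genes (exact permutation, adjusted p = 0.0243 for each) and -0.91 for Nr1d1 (adjusted p = 0.0729). Nr1d1 thus passed only when all 8 livers were permuted together. Npas2 passed within the series of label numbers (r = -0.83, exact permutation, adjusted p = 0.0304). Within genotype it did not pass (r = -0.73, exact permutation, adjusted p = 0.0810). The time of day of collection is not given in the sources used here. Of the 14 clock genes, 0 passed the adjusted threshold between the groups. Nr1d1 was the 1 gene with an unadjusted p-value under 0.05 (log2 FC 0.83, limma adjusted p = 0.304). At that level, 9.23% of all tested genes were higher and 6.59% lower.

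**Figure D3:**
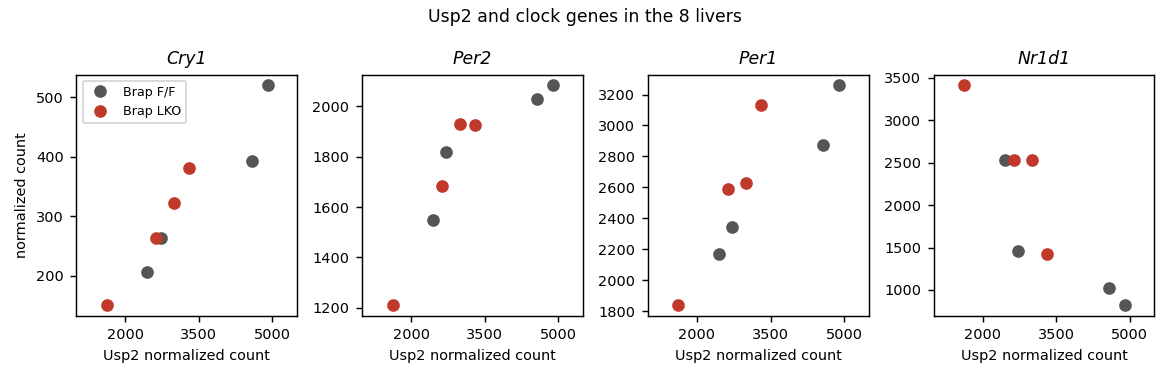
Normalized counts of Cry1, Per2, Per1 and Nr1d1 (vertical axes) against that of Usp2 (horizontal axis) in the 8 livers, 4 Brap F/F (gray) and 4 Brap LKO (red). Cry1, Per2 and Per1 are higher and Nr1d1 lower in livers with more Usp2, and both groups lie along the same trend.

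Levels of different members were compared per kilobase of exon in the GENCODE annotation. The 5 highest in control livers were Usp2 at 760 ± 261, Usp8 at 555 ± 37.2, Usp5 at 513 ± 15.9, Otub1 at 456 ± 46.9 and Usp19 at 441 ± 16.6 normalized counts per kilobase (SD, n = 4). Neighbors in this order differed by less than the sum of their SDs. Members were measured in the same livers, so these SDs do not decide the order, which was not tested liver by liver. Usp8 sorts receptors at endosomes, Usp5 takes apart free ubiquitin chains, and Usp19 is anchored at the endoplasmic reticulum. The log2 FC between the groups was -0.03 for Usp8, -0.05 for Usp5 and 0.0022 for Usp19, and the adjusted p-values from limma were 0.867, 0.699 and 0.989. The median level over the 53 tested members was 134 normalized counts per kilobase. Usp43 was the lowest, at 0.675 ± 0.535 in Brap F/F and 4.03 ± 0.749 in Brap LKO (SD, n = 4), and it remained under Usp11, the next member, at 7.78 ± 1.45 and 9.02 ± 1.12 (SD, n = 4).

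**Figure D4:**
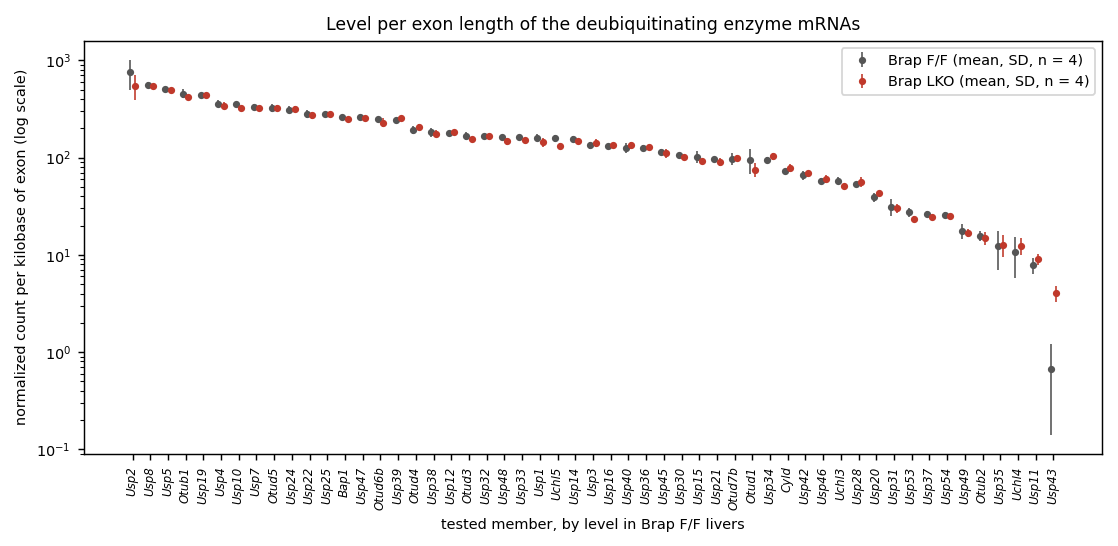
Mean normalized count per kilobase of exon (log axis) with SD (n = 4) for the 53 tested members, ordered by the level in Brap F/F livers (gray) with Brap LKO livers beside it (red). Levels run from 760 for Usp2 to 0.675 for Usp43, and Usp43 is the member whose groups are farthest apart.

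Promoter sequence was available for 45 of the members, as 48 entries of the RefSeq table (GRCm38.p6). The 250 bases before each start site had a median GC content of 63.6%, against 59.2% for 13551 promoters of tested protein-coding genes and 52.4% for all 32851 promoters, which include noncoding genes. The median ratio of observed to expected CpG was 0.839 for members, 0.694 for tested protein-coding genes and 0.373 for all promoters. On either strand, the GC box (GGGCGG) was present in 31 of the 48 member promoters (64.6%), against 55.2% of the tested protein-coding and 32.7% of all promoters. The TATA box (TATAAA) was present in 2 (4.17%), against 7.0% and 12.4%. The TEAD site (GGAATG) was present in 4 (8.33%), against 10.9% and 12.6%, and the E-box (CACGTG) in 6 (12.5%), against 8.01% and 6.02%. The CCAAT box (CCAAT) was in 12 (25%), against 35.0% and 33.8%, and the cyclic AMP response core (TGACGTC) in 2 (4.17%), against 4.22% and 2.78%. These letters are matches only and were not tested as sites.

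The promoters of the pair of UCH members whose groups did not overlap and of Usp2 and Otud1, which had their lowest and highest values in the same livers, are shown 5′ to 3′, all on the forward strand, with matches to the 6 motifs in capitals. That of Uchl5 is at chr1:143777028-143777277, that of Uchl3 at chr14:101653717-101653966, that of Usp2 at chr9:44084670-44084919 and that of Otud1 at chr2:19657481-19657730. The Usp2 entry precedes a start site inside the gene, which begins at 44067021 in the GENCODE annotation.
Uchl5: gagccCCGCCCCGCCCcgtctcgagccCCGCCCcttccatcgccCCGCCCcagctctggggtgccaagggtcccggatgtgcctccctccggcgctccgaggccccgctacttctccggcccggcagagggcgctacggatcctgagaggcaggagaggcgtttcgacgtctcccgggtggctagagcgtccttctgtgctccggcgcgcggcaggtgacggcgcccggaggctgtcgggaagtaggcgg
Uchl3: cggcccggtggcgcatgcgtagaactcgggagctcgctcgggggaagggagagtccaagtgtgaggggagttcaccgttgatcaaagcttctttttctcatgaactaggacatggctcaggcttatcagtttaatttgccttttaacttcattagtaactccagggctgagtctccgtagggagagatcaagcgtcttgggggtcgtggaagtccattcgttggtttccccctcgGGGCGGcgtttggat
Usp2: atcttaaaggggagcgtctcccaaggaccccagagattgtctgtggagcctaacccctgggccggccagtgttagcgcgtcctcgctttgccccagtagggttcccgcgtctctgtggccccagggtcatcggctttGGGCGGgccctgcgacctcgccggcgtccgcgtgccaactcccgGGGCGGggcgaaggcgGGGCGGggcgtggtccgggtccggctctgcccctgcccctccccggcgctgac
Otud1: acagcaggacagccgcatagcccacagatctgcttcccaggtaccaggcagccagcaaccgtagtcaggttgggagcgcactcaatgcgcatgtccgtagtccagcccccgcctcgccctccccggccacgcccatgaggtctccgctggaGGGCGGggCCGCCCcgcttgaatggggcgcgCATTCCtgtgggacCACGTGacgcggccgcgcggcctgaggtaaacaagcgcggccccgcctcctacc
The Uchl5 promoter held 4 GC boxes in 74.0% GC, of which the first pair overlaps by a base, and the Uchl3 promoter 1 in 54.0% GC. The Usp2 promoter held 3 GC boxes in 71.6% GC. The Otud1 promoter held 2 GC boxes, 1 E-box and 1 TEAD match, in 69.2% GC. The letters of the E-box are not in the Usp2 window, which says nothing of other parts of the gene.

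Of 26 further tested deubiquitinating enzymes outside the rule, among them Usp9x, Otulin and the metalloproteases of the proteasome and the COP9 signalosome, 0 passed the adjusted threshold, 0 were higher at an unadjusted p-value under 0.05 and 5 were lower (Zranb1, Josd1, Psmd14, Mpnd and Cops6), with log2 FCs of -0.15 to -0.23. The lower share was 19.2%, against 6.59% of all tested genes. At the same total of reads per liver, 7 were higher and 0 lower, where 22.0% of all tested genes were higher and 1.32% lower. Usp9x had a log2 FC of 0.22 (limma adjusted p = 0.401). Of 25 partner proteins of the enzymes, 2 were higher at an unadjusted p-value under 0.05, the BAP1 cofactors Asxl1 (log2 FC 0.17) and Asxl2 (0.26), and 1 was lower, Wdr20 (-0.17). Their adjusted p-values from limma were 0.252, 0.238 and 0.302. The shares of partners were 8.0% higher and 4.0% lower, under the 9.23% and 6.59% of all tested genes. At the same total of reads per liver, 7 partners were higher (28.0%, against 22.0% of all tested genes) and 0 lower.

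Of 34 activating and conjugating enzymes, 0 were higher and 3 lower at an unadjusted p-value under 0.05 (Ube2a, Ube2e3 and Ube2r2), which is 8.82% against 6.59% of all tested genes. The fitted value was below 0 for 26 of them (76.5%, against 52.0% of all tested genes), with a median log2 FC of -0.08. At the same total of reads per liver, 6 were higher (17.6%, against 22.0% of all tested genes) and 0 lower. With that scaling, 20.6% lay below 0, against 21.6% of all tested genes.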

How the data were processed

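RNA of 8 livers was isolated by the authors with TRIzol and column purification, and mRNA libraries were prepared with a NuGEN Universal Plus kit. Reads were checked with FastQC and aligned to mm10 with STAR 2.6.0c. How reads were assigned to genes (tool, annotation release, strand) is not given in the sources used here. The authors deposited a signal, reads per gene scaled with DESeq2 size factors, with 1 factor per liver. All values (100%) were whole multiples, within 0.001 reads, of the value of 1 read, so reads were recovered by division. A second deposited table with the authors' DESeq2 comparison (fold changes and p-values) was not used.

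Groups came from the sample titles. Log2(normalized count + 1) was compared with limma 3.58.1 in R 4.3.3 (mean-variance trend, no covariates) for genes with a mean of at least 5. The study's own tool models counts, so edgeR 4.0.16 (quasi-likelihood) and DESeq2 1.42.0 were run on the recovered reads as alternatives. Of all genes tested, edgeR called 108 higher and 14 lower, and DESeq2 455 and 170. The limma, edgeR and DESeq2 fits were tested on simulated data. Controls are described as littermates, but litters are not given for these samples, and p-values measure only the spread among 4 livers in either group. The counting interval covers counting error only. Exact permutation tests, correlations and figures used scipy 1.17.1, matplotlib 3.10.9, pandas 2.3.3 and numpy 2.4.6 under Python 3.11.15. GENCODE for mm10 gave positions and exon lengths and held all 56 members, and RefSeq gave the promoters.

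Named members were those past the threshold, the separated members (up to 8 in each direction), the 5 with the highest level per kilobase, and 12 chosen by role. Otud1, Usp53 and other members given with values, and genes of other lists with an unadjusted p-value under 0.05, were chosen after their values were seen. Members and lists were chosen with earlier results of these data known. The fits of Usp2 within genotype or label series, of the lists at equal totals and of members below the filter were added after seeing the data. Some genes of the lists are not reported here.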

Additional observations from a re-analysis of the deposited data

Results flagged for a closer look

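With 53 members in either genotype, 106 sets of 4 values were examined, and in 3 of them a single liver stood far from the rest, judged by the gap to the nearest liver over the range of the set. About 1 in 20 sets, or 5.3 here, would be marked by chance. Usp11, a relative of Usp4 and Usp15, had a normalized count of 34.8 in Brap LKO replicate 2 and 44.6 to 46.5 in the other Brap LKO livers. Its pooled SD within groups was 0.237 on the log2 scale, where counting error alone would give 0.228. Otud3 had 277 in Brap LKO replicate 4 and 249 to 250.5 in the others. Usp38 had 1132 in Brap LKO replicate 3 and 968 to 970 in the others, and 20.5% of its exon bases are shared with the antisense gene Gm9725.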

How the results depend on the processing

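The 22 other settings left every named member other than Usp43 outside the adjusted threshold (352 values). Usp43 passed in 8 of the 21 settings that tested it, and it is the 1 member counted as higher with a pseudocount of 5 (adjusted p = 0.0314 from limma), no filter (0.0480), the same total per liver (0.0243), TMM factors (0.0493), robust eBayes (0.0498), arrayWeights (0.0296), edgeR or DESeq2, and at an adjusted p-value under 0.1. It did not pass with quantile normalization (0.0833), the series of label numbers as a covariate (0.127) a pseudocount of 0.5 (0.0598) or no trend (0.0593), and a minimum mean of 20 removed it. No setting put a member among the lower at the adjusted threshold. Unadjusted p-values under 0.05 with Brap LKO higher were found for 2 members with no filter (Usp43 and Usp13) or quantile normalization. With a minimum mean of 20 the number was 0, and without 1 liver in turn it was 1 to 2. At an equal total per liver 17 members were higher, where 22.0% of all tested genes were higher. The number of lower members was 1 with TMM factors, without the trend, with the series as a covariate and with edgeR, 3 with quantile normalization or arrayWeights, 0 with the same total per liver, and 1 to 4 without 1 liver in turn (4 without replicate 4 of either genotype, 1 without replicate 1, 2 or 3 of Brap LKO or replicate 2 of Brap F/F). The number of higher members was 2 without replicate 2 or 4 of Brap LKO or replicate 1 of Brap F/F. The median log2 fold change of the members was 0.0172 after quantile normalization and 0.12 at an equal total per liver, where the median of all tested genes moved to 0.15, and -0.05 to -0.0066 without 1 liver in turn. Bap1, Usp15, Usp10, Otub1 and Usp14 lay below 0 in all other settings and above 0 with the same total per liver. Uchl5 and Uchl3 stayed below 0 in every setting, with log2 fold changes of -0.11 and -0.02 at the same total per liver. Correlations of the deviations of livers with the same replicate number ran from -0.13 to 0.29, and 3 of 4 Brap LKO livers matched their own number best. Not every pair was over 0.1, so the numbers were not used to pair livers. With the replicate number as a block, 0 members passed, 1 was higher and 2 lower at an unadjusted p-value under 0.05, and Usp43 had an adjusted p of 0.0861 from limma. Low counts limit Usp43, Uchl4, Usp11, Otub2 and the 3 untested members.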

Other observations

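The normalized counts of the 56 members summed to between 58509 and 61745 in Brap LKO and between 58571 and 64084 in Brap F/F, with overlap. As a share of all reads counted on genes, they took 0.207% to 0.218% in the Brap LKO livers and 0.190% to 0.204% in the Brap F/F livers, with none. The direction of the summed level therefore depended on whether livers were scaled by the authors' size factors or by total reads.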
